A study of Mus musculus with 4 samples.

Results

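Among the CTCF peaks of mouse cerebral cortex, 837 of 44672 (1.87%) had their summit in the 3' untranslated region (3' UTR) of a protein-coding gene, the transcribed but untranslated end of the messenger RNA. The 44672 peaks are the list supported by both pools of animals, called the conservative list here. Of its summits, 916 lay in a 3' UTR in the GENCODE M21 annotation. From these, 21 were left out because they also lay in a coding sequence or stop codon of some transcript, and 58 because they lay within 1000 bp of a transcription start site (TSS) of a protein-coding or long non-coding RNA gene. Close to that limit, the 4 peaks kept by at most 100 bp had signal values of 166 to 445, and the 7 left out by less than 100 bp had values of 9.32 to 558. All coordinates are on mm10 (GRCm38) and 1-based.

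The mice were B6CASTF1/J adult females, 2 months old, which by name are hybrids of the strains C57BL/6J and CAST/EiJ, and the tissue was the left cerebral cortex, kept frozen. The 4 ChIP-seq libraries were 2 technical replicates from each of 2 pools, pool I (biological replicate 1) and pool J (biological replicate 2), and each pool combined 4 cortex biosamples. There was no treatment and no second condition, so the comparisons are between places in the genome and between the pools. Both libraries of a pool were merged before peaks were called, so each value below is of a pool or of both pools, without an SD, and the read depth is unknown. Cortex is a mixture of cell types, and a peak in fewer cells and weaker binding in every cell cannot be told apart.

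CTCF is a zinc finger protein that binds DNA at a motif without symmetry, so each site has an orientation. Cohesin, the ring complex that extrudes chromatin loops, halts most often at CTCF sites whose motifs point toward each other. Methylation of CpG within the motif is known to weaken binding at many sites. The 3' UTR is best known as RNA, where microRNAs and RNA-binding proteins act and where cleavage and polyadenylation end the transcript, whereas ChIP-seq reads binding to the DNA of that part of the gene.

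The sequences below are the best matches to the CTCF motif within 50 bp of the summit, read from the reference genome (C57BL/6J) on the strand of the motif. Capitals mark the 12 core bases of the 20-base motif. The most frequent base at each position over the matches of 621 peaks gives the pattern they share:
Most frequent bases: ctggCCACCAGGGGGCacca

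The first set is from the 8 strongest peaks that had a match, ordered by signal value:
Ptges2 (chr2:32404911-32404930, minus strand): ttggCCACAAGGTGGCagca
Dnajc11 (chr4:151981552-151981571, plus strand): gtggTCAGCAGGTGGCgctg
Tkt (chr14:30574396-30574415, minus strand): atggCCACCAGGTGGTgacc
Trp53i13 (chr11:77508202-77508221, plus strand): cccgCCGCCAGGGGGCgccc
Srebf1 (chr11:60199823-60199842, plus strand): tctgCCACTAGAGGTCggca
Tnfrsf1b (chr4:145214575-145214594, plus strand): cgggCCACCAGGGGGCagac
Ror2 (chr13:53109646-53109665, plus strand): gactCCAGCAGATGGCagca
Pip5kl1 (chr2:32583629-32583648, plus strand): ccagCCACCAGAGGGAagca

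The second set is from the 5 peaks with the best motif scores, outside clone symbols. The sites were chosen by score, so their nearness to the shared pattern follows from that choice:
Ptp4a3 (chr15:73757347-73757366, minus strand): atggCCACCAGAGGGCgcca
Zbtb7b (chr3:89378470-89378489, plus strand): atggCCACCAGATGGCgcta
Ccdc77 (chr6:120324488-120324507, minus strand): ctgaCCACCAGGGGGCagca
Bcr (chr10:75182564-75182583, plus strand): gttgCCACCAGAGGGCaccc
Plin5 (chr17:56111996-56112015, plus strand): atgaCCACCAGGGGGCagta

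The third set is from sites the text returns to. Rhof and Eef2kmt carry peaks in 3' UTRs of both strands, Itfg2 and Tmem144 carry peaks in annotated repeats, and Mgat5 and Chrm1 have 3 peaks each:
Rhof (chr5:123117445-123117464, plus strand): gcctCCACCAGAGGGCgccc
Eef2kmt (chr16:5244625-5244644, minus strand): atgaCCACTAGGGGGCactc
Itfg2 (chr6:128411285-128411304, minus strand): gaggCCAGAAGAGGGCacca
Tmem144 (chr3:79814022-79814041, minus strand): gaggGCAGCAGAGGGCagca
Mgat5 (chr1:127487349-127487368, minus strand): ctgtCCAGCAGGGGGCagca
Mgat5 (chr1:127485006-127485025, plus strand): tcaaCCGGCAGGGGGCgcca
Chrm1 (chr19:8683237-8683256, minus strand): attgCCAGCAGGTGGCgcta

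Across the matches, the second core base was C at 100% of sites and base 11 of the motif was G at 99.8%. Other positions were split. Base 12 was G at 53.6% and A at 45.7%, and base 17, just past the core, was A at 49.6% and G at 47.7%. Of the 621 matches, 608 sequences were distinct, 12 sequences occurred more than once, and the commonest had 3 copies. Most matches were therefore different sequences.

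The strongest 3' UTR peaks stood at the top of the whole list. The signal value is the deposited peak strength, in a unit that was not stated, and serves here to rank peaks. Over the 837 peaks it ran from 11.1 to 722 with a median of 347, against 269 over the whole list. The highest value, 722, belonged to a peak in Ptges2, a prostaglandin E synthase, at chr2:32404603-32405130, with 405 in pool I and 319 in pool J. Its summit lay 2553 bp past the stop codon in a 3' UTR of 3444 bp. The next, 698, was in Dnajc11, a mitochondrial J-domain protein, at chr4:151981348-151981791, with 398 in pool I and 300 in pool J. Both genes were high in both pools, and Ptges2 had the highest value of all 3' UTR peaks in each.

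Among the others of the 10 strongest, several lay in enzyme and receptor genes. In Tkt, the transketolase of the pentose phosphate pathway, the signal value was 662 (375 in pool I, 291 in pool J). In H6pd, the hexose-6-phosphate dehydrogenase of the endoplasmic reticulum, it was 660 (380 and 280). In Srebf1, which encodes a transcription factor of lipid synthesis, it was 658 (386 and 271), with the summit 95 bp past the stop codon. Tnfrsf1b, a receptor for tumour necrosis factor, had 651, and Ror2, a receptor tyrosine kinase for Wnt ligands, had 648. The remaining genes were Trp53i13 with 662 and Pip5kl1 with 648, both with short 3' UTRs of 166 and 242 bp. The 10 were named for their strength, so their values describe them and are not a test.

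Rtn2, a reticulon of the endoplasmic reticulum, had the third highest value, 685 (394 in pool I, 298 in pool J), without a motif match. Its best score was 1.08 bits, under the threshold of 11.7 bits. H6pd (best score 5.66) and Unc119b (signal value 608, best score 3.16) were the next strongest without one. Rtn2 faces Fosb, an activity-regulated transcription factor gene, across a gap of 6535 bp between their 3' ends. Fosb had a 3' UTR peak of its own, with a signal value of 549 (351 and 196) and a motif score of 20.9.

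The low end of the range was set by intervals listed with several summits. The 3 lowest values were 11.1 in Tomm40, 20.5 in Mrs2 and 22.5 in Mrgprg. Each was a side summit 199 to 208 bp from a far stronger summit of the same interval, with values of 408, 419 and 480. In all, 9 of the 837 peaks lay in such intervals, as did 494 of the 44672.

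The comparison of strength asked whether 3' UTR peaks differ from peaks in the other parts of genes. The 3' UTR peaks were stronger than those in coding exons and introns, and no difference in strength was detected from peaks just downstream of genes, meaning outside genes and within 5000 bp of a gene end. Above the median signal of the list lay 500 of the 837 (59.7%, exact 95% interval 56.3 to 63.1%), against 50% of the list by definition. The share was 45.3% of 892 coding exon peaks, a difference of 14.4 percentage points (9.75 to 19; two-sided Fisher's exact test, adjusted p = 3.3e-09). In the pool I list alone, which leaves out pool J, that difference was 6.4 points (57.7% against 51.3%). It was 46.3% of 18511 intron peaks, a difference of 13.5 points (10 to 16.8; Fisher's exact test, adjusted p = 7.8e-14). It was 59.5% of 2432 downstream peaks, a difference of 0.239 points (-3.64 to 4.05; Fisher's exact test, adjusted p = 0.93). Adjusted p-values here and below are Benjamini-Hochberg over the 3 classes. They count peaks, which are not replicates of animals.

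**Figure D1:**
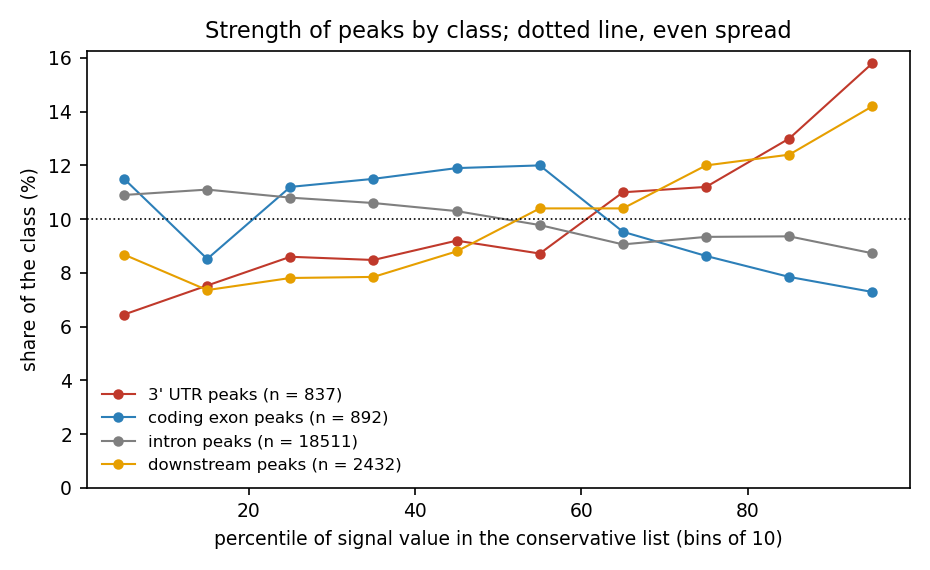
Share of each class (y axis, percent) in each decile of the conservative list by signal value (x axis, percentile); each line is 1 class and the dotted line marks an even spread. The 3' UTR line climbs from 6.45% in the weakest decile to 15.8% in the strongest, close to the line of downstream peaks, while the coding exon and intron lines end below 10%.

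The gradient ran over the whole range of strength. The strongest decile of the list held 132 of the 3' UTR peaks (15.8%) and the weakest decile 54 (6.45%). Median signal values were 241 for coding exons, 245 for introns and 336 for downstream peaks. The median width of the 3' UTR peaks was 329 bp, against 309 bp over the list.

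CTCF motifs were found in 3' UTR peaks more often than in coding exon peaks and less often than in downstream peaks. A match was present in 621 of 837 (74.2%, 71.1 to 77.1%), against 71.7% over the list outside the peaks that trained the motif. In windows 1000 bp to either side of the 3' UTR summits, 1.08% of 1674 had a match, where the score threshold was set so that 1% of such windows around other peaks pass. Coding exon peaks had a match at 61.8%, which is 12.4 points lower (7.96 to 16.7; two-sided Fisher's exact test, adjusted p = 1.5e-07). Strength, which differed between these classes, was not held equal in this comparison. Downstream peaks had one at 80.4%, a difference of -6.16 points for the 3' UTR (-9.6 to -2.87; Fisher's exact test, adjusted p = 0.00034), and in the pool I list alone it was -11.8 points. With a stricter score, passed by 0.1% of flanking windows, that difference was -0.979 points and no longer passed the test (Fisher's exact test, adjusted p = 0.58). Intron peaks had a match at 74.4%, a difference of -0.173 points (-3.31 to 2.75; Fisher's exact test, adjusted p = 0.9). In the pool I list alone that difference was -2.89 points and passed the test (Fisher's exact test, adjusted p = 0.032).

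Motif content rose with strength. From the weakest to the strongest quartile of the list, a match was present in 48.7% of 152, 63.2% of 185, 79.7% of 217 and 90.8% of 283 3' UTR peaks. Intron peaks in the same quartiles had 61.9%, 69.2%, 81.0% and 89.7%. Coding exon peaks had 45.4%, 53.6%, 71.8% and 85.6%, and their intervals overlapped those of the 3' UTR peaks in every quartile. In the weakest quartile the interval of the 3' UTR share (40.5 to 56.9%) lay below that of introns (60.5 to 63.2%) and of downstream peaks (61.2 to 69.7%), and it overlapped that of coding exons (38.9 to 51.9%). In the strongest quartile the 3' UTR interval (86.8 to 93.9%) overlapped all 3. The difference between quartiles was not tested. The peaks that trained the motif, among the strongest of the list, were left out of the compared classes, while no 3' UTR peak was left out.

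**Figure D2:**
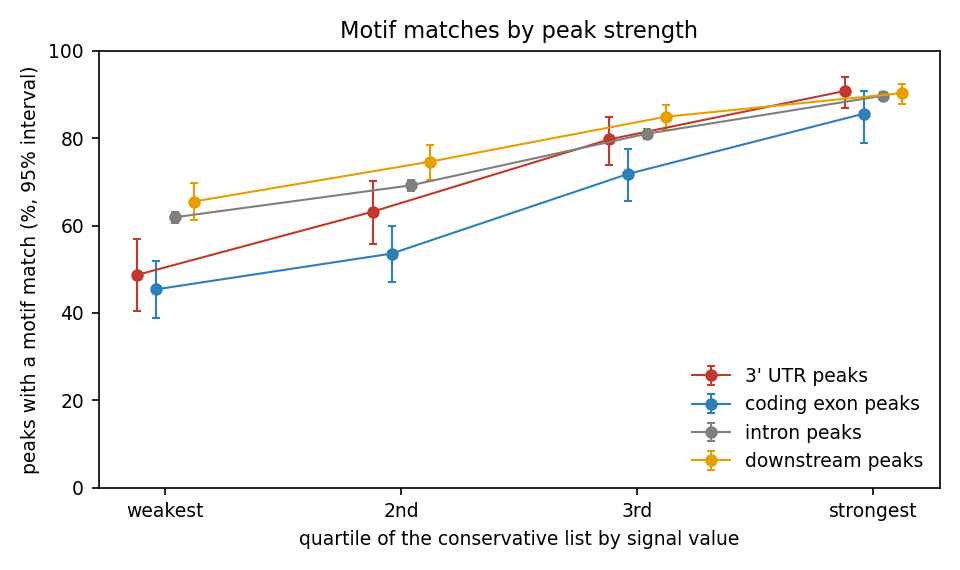
Share of peaks with a motif match (y axis, percent, with exact 95% intervals) by quartile of the conservative list by signal value (x axis); points are classes. In the weakest quartile 3' UTR peaks sit with coding exon peaks, at 48.7% and 45.4%, and in the strongest quartile at 90.8%, beside introns at 89.7% and downstream peaks at 90.3%.

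Matches lay at the summits. Between the centre of the match and the summit the median distance was 6.5 bp, and 578 of 621 (93.1%) were within 20 bp. This was no different over the list outside the training peaks, with a median of 6.5 bp and 29004 of 31322 matches within 20 bp. The best score, 26.4 bits, was in Ptp4a3, which encodes a protein tyrosine phosphatase, with a signal value of 606 (390 in pool I, 219 in pool J). Zbtb7b, a zinc finger transcription factor of T cell lineage choice, scored 25.5 with a signal value of 635. Ccdc77 scored 24.8, Bcr 24.5 and Plin5, a lipid droplet protein, 24.5, with signal values of 567, 600 and 548. All 5 best-scoring peaks had signal values above the 3' UTR median of 347.

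CpG within the motif match was less frequent in 3' UTRs than in coding exons. At least 1 CpG was in 248 of 621 matches (39.9%, 36.1 to 43.9%). The shares were 62.3% for coding exons (58.1 to 66.4%), 33.4% for introns (32.6 to 34.2%) and 38.6% for downstream peaks (36.4 to 40.8%). The commonest place was base 16, the last core base, which started a CpG in 32.4% of the 3' UTR matches. Dnajc11, Trp53i13 and Ptp4a3 among the printed sites have it, and Ptges2 and Tnfrsf1b do not. Methylation was not measured, and these shares were not tested against each other. The median GC content of the 101 bases around the summit was 52.5% in 3' UTRs, 58.4% in coding exons, 49.5% in introns and 50.5% downstream.

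The motif pointed along the gene as often as against it. Of 617 matches in genes of a single strand, 313 lay on the coding strand and 304 on the other, or 50.7% (46.7 to 54.7%; two-sided exact binomial test against 50%, p = 0.75). Of the 8 strongest sites printed first, those of Dnajc11 and Pip5kl1 were on the coding strand of their gene and the other 6 were not.

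Orientation was also read against motifs at the promoter of the same gene. There were 77 pairs of a 3' UTR match and a promoter match in 1 gene. In 30 (39.0%, 28.0 to 50.8%) the motifs pointed toward each other, in 18 (23.4%, 14.5 to 34.4%) away from each other, and in 29 (37.7%, 26.9 to 49.4%) the same way. Motifs with independent and even strands would give 25%, 25% and 50%, and no test was made. The intervals count pairs as independent, although Zbtb39, Dtx4 and Dnajc11 gave 2 pairs each. Median distances were 32700 bp for convergent, 21500 bp for divergent and 25900 bp for same-strand pairs. Examples of convergent pairs are Gpr3, an orphan receptor, at 3152 bp, Htr1a, a serotonin receptor, at 3692 bp, and Ror2 at 176497 bp. Rbfox3, the gene of the neuronal nuclear antigen NeuN, held a divergent pair 420419 bp apart. Dnajc11 held 2 pairs in the same direction. The examples were chosen after their values were seen. Loops were not measured.

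Relative to the length of sequence that could hold them, summits were denser in 3' UTRs than in introns and sparser than just past the gene end. Eligible 3' UTR sequence, that is outside coding sequence and over 1000 bp from a TSS, came to 30.8 Mb and held 27.1 summits per Mb (exact Poisson interval 25.3 to 29.0), or 44.8 in the pool I list alone, which had 1382 such peaks. Coding exons held 29.3 per Mb (27.4 to 31.3), introns 19.9 (19.6 to 20.1) and downstream sequence 36.1 (34.7 to 37.6). Promoters had the highest density with 75.9, intergenic sequence had 10.8, and the genome as a whole had 16.9. The interval of the 3' UTR overlapped that of coding exons and no other of these.

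The difference between 3' UTR and downstream sequence was visible close to the annotated end. In the last 250 bp of 3' UTRs there were 107 summits, or 23.9 per Mb (19.6 to 28.8). In the first 250 bp past the end there were 158, or 43.2 per Mb (36.7 to 50.5). The other 11 bins, out to 3000 bp before the end, ran from 20.8 to 34.5 per Mb, so the last bin was within their range. Past the end it stayed between 31.7 and 43.6 per Mb out to 5000 bp. The downstream bins hold only sequence outside other genes, so the bins on either side come from partly different genes.

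**Figure D3:**
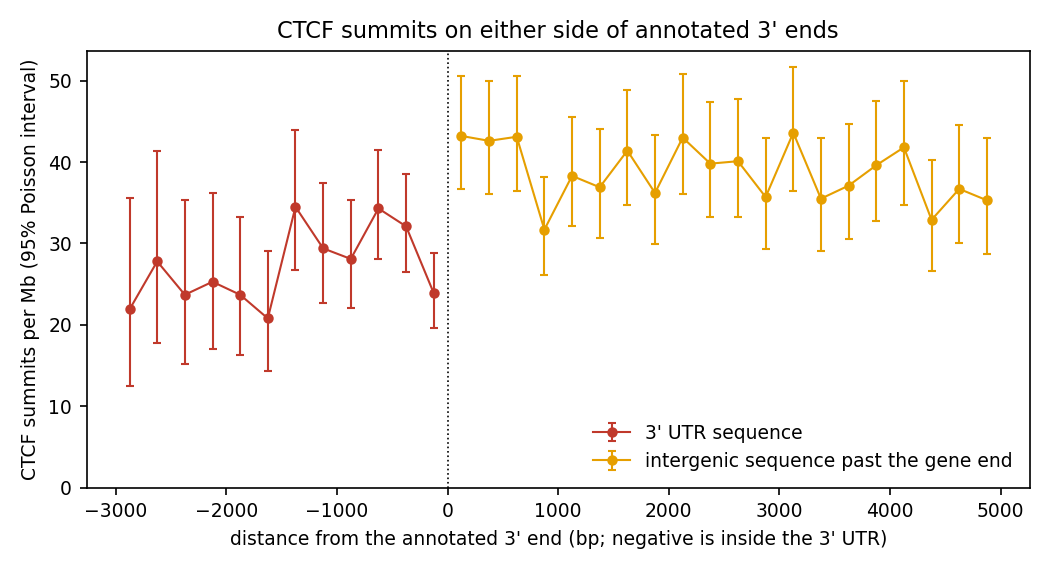
Density of CTCF summits (y axis, per Mb of eligible sequence, with exact 95% Poisson intervals) in bins of 250 bp around annotated 3' ends (x axis, bp; 0 is the end). Points left of the end are 3' UTR sequence and points right of it are intergenic sequence; the last bin inside is at 23.9 per Mb and the first outside at 43.2 per Mb.

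Within the 3' UTR no quintile held most of the peaks. From the stop codon to the end, the quintiles held 19.6%, 22.3%, 19.8%, 20.9% and 17.3% of summits, where 19.7 to 20.1% of eligible bases lay in each. The interval of every quintile (14.8 to 20.1% for the last) contained the share of its bases. The median distance was 901 bp from the stop codon (2 to 15657 bp) and 975 bp from the end (17 to 16366 bp). Within 100 bp of the stop codon lay 67 summits, and within 100 bp of the end 41. No share of eligible bases is given for these distances, so the counts are not compared. Between 2 annotated 3' ends of the same gene, where only the longer transcripts contain the site, lay 224 (26.8%), and 26.9% of eligible bases lay there.

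A few summits lay deep in very long 3' UTRs. Of the 29 summits over 5000 bp past the stop codon, the strongest was in Ephb2, an ephrin receptor, at 6242 bp, with a signal value of 591 (369 in pool I, 224 in pool J). Itsn1, an endocytic scaffold gene, had one at 5986 bp (570), and Yae1d1 one at 5954 bp (560). All 3 had a motif match.

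Repeats were under-represented among the 3' UTR summits relative to their share of the sequence. In repeat-masked bases lay 93 summits (11.1%, 9.06 to 13.4%), while 19.3% of eligible 3' UTR bases were repeats. The shares of summits in repeats were 19.9% over the list, 2.91% in coding exons, 25.7% in introns and 23.5% downstream. For these the share of bases in repeats was not taken, so under-representation there is unknown. The strongest 3' UTR peaks in repeats were in Itfg2 (signal value 614, motif score 21.3), Tmem144 (590, motif score 17.4) and Cbln3, a cerebellin (571, no match). The comparison with the share of bases was not tested.

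For 451 of the 837 peaks (53.9%, 50.4 to 57.3%) the next protein-coding gene past the host's 3' end lay on the opposite strand. By the same rule this held for 49.2% of genes with eligible 3' UTR sequence and 49% of that sequence, a difference that was not tested. Overlapping genes were not set apart, so an opposite strand need not mean that both genes end toward each other. In 8 cases the summit lay in 3' UTRs of both strands. The strongest was shared by Rhof, a small GTPase, and Tmem120b, at chr5:123117248-123117609, with a signal value of 510 (346 in pool I, 167 in pool J) and a motif score of 22.4. The next was shared by Eef2kmt, a methyltransferase of translation elongation factor, and Alg1, a mannosyltransferase, with a signal value of 491 (305 and 190). The third lay where Duoxa1 and Duoxa2, maturation factors of dual oxidases, overlap, with a signal value of 424 and a best score of 11.6 bits, just under the threshold. Another summit of the list lay within 2000 bp of 138 3' UTR summits (16.5%), against 15.9% over all peaks.

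The X chromosome held few of these peaks. It had 13, or 12.1 per Mb of eligible 3' UTR sequence (6.42 to 20.6), while the autosomes ran from 18.2 on chromosome 16 to 39.2 on chromosome 17 with a median of 25.5. The whole list was sparse there as well, with 7.49 summits per Mb on X against 13.8 to 27.0 on the autosomes. One of the X peaks was in Arhgap6, a GTPase-activating protein, with a signal value of 295 (202 and 97.9).

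Genes with a peak in the 3' UTR were 829 of the 20197 with eligible 3' UTR sequence (4.1%). Assigning each summit to 1 host left 800 genes, of which 768 had 1 peak, 27 had 2 and 5 had 3. Longer 3' UTRs were hosts more often. From the quintile of genes with the shortest eligible 3' UTR to the longest, 0.272%, 1.86%, 2.63%, 5.4% and 9.68% were hosts. Per Mb of that sequence the summits were 18, 39.1, 26.5, 30.3 and 24.3, without a steady rise.

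The 5 genes with 3 peaks spread them over differing lengths of the 3' UTR, and their peaks were unequal. In Mgat5, a glycosyltransferase that branches N-glycans, signal values were 171, 400 and 464 at 1701, 2285 and 4635 bp past the stop codon, and all 3 peaks had a motif. The printed Mgat5 motifs of the 2 stronger peaks lie on opposite strands. In Chrm1, a muscarinic acetylcholine receptor of cortical neurons, values were 108, 232 and 531 at 335, 2493 and 3924 bp, rising toward the end of the 3' UTR. The weakest had no match. In Gfod1 the order was the reverse, with 351, 199 and 119 at 388, 2891 and 4265 bp, and only the first had a match. The peaks of the other genes lay closer together. Mgll, a monoacylglycerol lipase that degrades an endocannabinoid, had 190, 115 and 183 at 953, 1468 and 2291 bp. Upk3b, a uroplakin, had 123, 91.5 and 475 at 921, 1461 and 2067 bp.

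**Figure D4:**
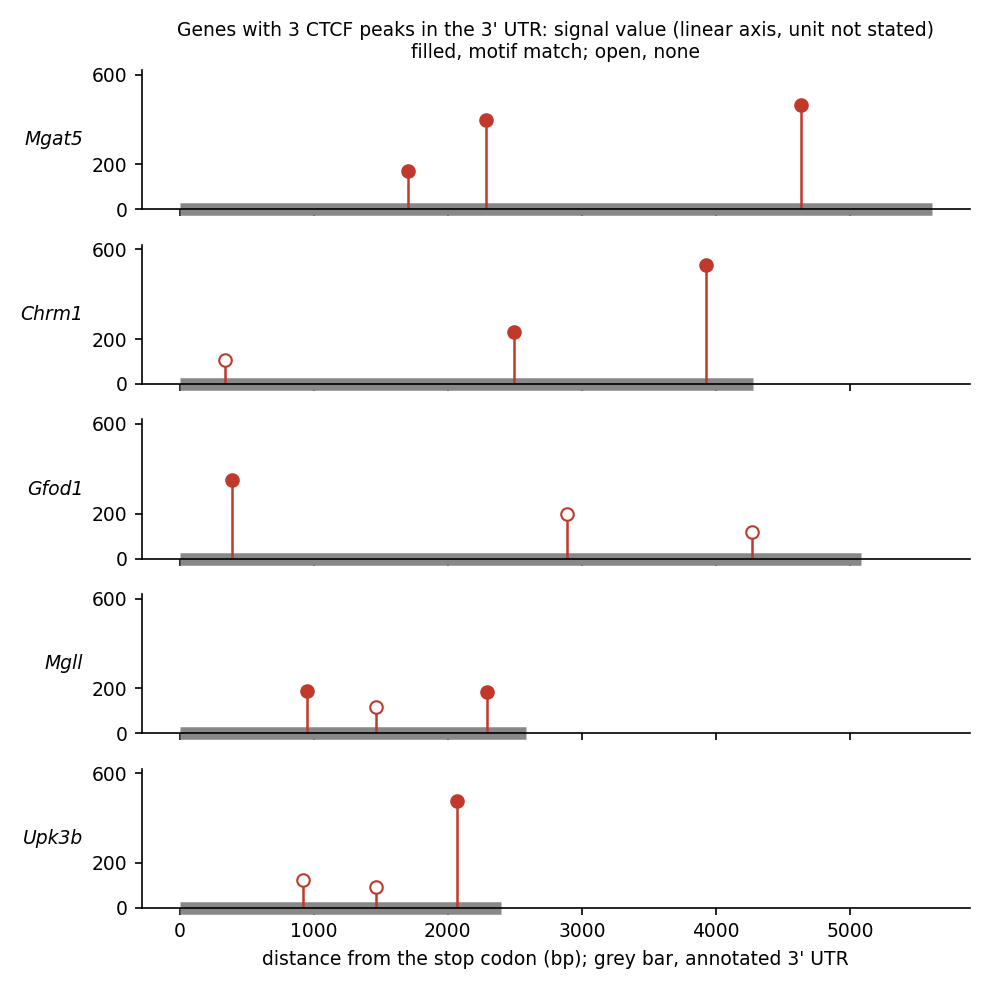
Signal value (y axis, linear, unit not stated) of each peak against distance from the stop codon (x axis, bp) in the 5 genes with 3 peaks in the 3' UTR; the grey bar is the annotated 3' UTR, filled points have a motif match and open points none. In Chrm1 the value is highest near the end of the 3' UTR (531) and in Gfod1 near the stop codon (351).

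Host genes also had CTCF at their promoter more often than other genes. A conservative peak within 1000 bp of a TSS was present for 237 of 829 hosts (28.6%, 25.5 to 31.8%), against 21.6% of all 20197 genes. Among the 19368 other genes it was 21.3% (two-sided Fisher's exact test, p = 1.3e-06), a difference of 7.32 points that was 12.1 in the pool I list alone. Since 1 summit counts for 21 protocadherin genes that share a 3' UTR, the test was repeated with 1 host per summit, a choice made after the data were seen. This gave 218 of 800 (27.2%, p = 9e-05, two-sided Fisher's exact test). Hosts were longer genes, with a median of 27100 bp against 19100 bp. Their 3' UTRs were longer as well, with a median of 2240 bp against 971 bp. The split by quartile of gene length used the 800 hosts, 1 per summit, and not the 829. Hosts and others had 23.3% and 14.7%, 20.5% and 20.2%, 24.9% and 21.7%, and 36.1% and 28.8%. The intervals of hosts and others overlapped in every quartile except that of the longest genes. The part of gene length or 3' UTR length in the pooled difference was not tested.

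Host genes were then read by group, as counts of hosts among members with eligible 3' UTR sequence, beside 4.1% of all genes. A peak in the 3' UTR is not a measure of expression, so cell type markers are gene groups only. None of the 21 CTCF and cohesin factors, the 21 polyadenylation factors, the 15 genes of the microRNA machinery or the 34 synaptic adhesion and scaffold genes was a host. Nor were any of the 17 excitatory neuron, 17 inhibitory neuron, 14 oligodendrocyte, 13 microglia or 11 endothelial markers, the 12 liver genes or the 38 Hox genes. Lists this short cannot show that the share is below that of all genes: 0 of 34 has an exact 95% interval that reaches 10.3%.

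The next 4 lists, of neuronal and activity-regulated genes, had 2 hosts each, or 5.88%, 6.9%, 5% and 10% of their genes in the order given, and the exact interval of every share contained 4.1%. Of 34 neuronal RNA-binding proteins, Rbfox3 (signal value 417, with 271 in pool I and 147 in pool J) and Celf1 (258, without a motif match) were hosts. Of 29 presynaptic vesicle genes, Syt7, a synaptotagmin (525, with 307 and 220), and Syn3, a synapsin (117, without a motif match), were. Of 40 glutamate and GABA receptor genes, Grm2, a metabotropic receptor (537, with 337 and 204), and Grik5, a kainate receptor subunit (400), were. Of 20 activity-regulated genes, Fosb (549) and Jun (202, no match) were hosts. Of these 8 hosts, Celf1, Syn3 and Jun had signal values below the 3' UTR median of 347.

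Other groups with single hosts were the astrocyte markers (S100b, 216), the chromatin regulators (Tet1, a 5-methylcytosine dioxygenase, 159) and the skeletal muscle genes (Myod1, 201, with the summit 6 bp past the stop codon). Of 55 imprinted genes, Slc22a3, an organic cation transporter (344), and Ano1, a chloride channel (157), were hosts. Of 52 cytoplasmic ribosomal protein genes, Rpl22 (600.0, with 352 and 251) and Rps20 (295) were.

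Large families differed in their counts. Hosts were 20 of 361 solute carriers (5.54%, 3.42 to 8.43%), with Slc16a5 (644) and Slc43a2 (618) the strongest, and 13 of 232 Tmem genes (5.6%, 3.02 to 9.39%). Among 68 genes named for Rab GTPases 7 were hosts (10.3%, 4.24 to 20.1%), with Rab23 (595) the strongest. Zinc finger genes of the Zfp series had 7 of 380 (1.84%, 0.744 to 3.76%) and olfactory receptors 8 of 1045 (0.766%, 0.331 to 1.5%). Both latter intervals lie below 4.1%, and neither was tested. Per Mb of eligible 3' UTR these were 31.7 for solute carriers, 46.3 for Rab genes, 9.91 for Zfp genes and 4.46 for olfactory receptors.

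Protocadherins and cadherins had the highest share, 22 of 95 (23.2%, 15.1 to 32.9%), from only 2 summits, or 9.98 per Mb of their eligible 3' UTR against 27.1 over all genes. One lay in the last exon shared by the gamma protocadherins, neuronal adhesion proteins whose isoforms differ in their first exon, and was counted for 21 of them. It had a signal value of 249 (167 in pool I, 78.7 in pool J) and a motif score of 24.2. The other was in Pcdh20, a protocadherin outside the clusters (458, with 298 and 159).

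The pools gave nearly the same picture of these sites. The peaks overlapped one of the pool I list in 836 of 837 cases (99.9%), against 100% of the list after rounding. They overlapped a pool J peak in 822 (98.2%, 97.1 to 99%), against 96.9% of the list. Intron peaks did so at 96.6%, which is 1.62 points lower (0.451 to 2.38; two-sided Fisher's exact test, adjusted p = 0.023). Coding exon peaks did at 97.1% and downstream peaks at 97.3%, and neither differed past the threshold (differences of 1.12 points, -0.344 to 2.62, and 0.881 points, -0.397 to 1.89; adjusted p = 0.19 for both, Fisher's exact test). The conservative list was selected for like ranks in both pools, so high shares are part of its making. Of the peaks absent from pool J, the strongest with a gene symbol outside clone names were in Cdk10 (signal value 138, with 108 in pool I and 29.5 in pool J), Sncg, a synuclein (130, with 106 and 25.8), and Zfp941 (109, with 82.3 and 27.9).

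Across the 837 peaks, Spearman's correlation between the pools' signal values was 0.971, and on the log2 scale Pearson's r was 0.953, a description over peaks that share 2 sets of libraries. Median values were 238 in pool I and 112 in pool J. The log2 ratio between them (I over J) had a median of 1.02 and an SD of 0.393 over peaks. Over the whole list the median was 1.09 and the SD 0.386. With the unit not stated, the ratio is not read as more binding in pool I. Over 2-fold from the list's median ratio lay 3 of the 837 peaks (0.358%), near the 210 of 44672 (0.47%) over the list. Of the 3, those of Tomm40 (-4.22 on the log2 scale) and Mrs2 (3.17) are the side summits described above. For these, one pool's value is the same as that of the main summit of the interval: 143 in pool J for Tomm40 and 284 in pool I for Mrs2. Without the 9 peaks of such intervals, Spearman's correlation was 0.977 over 828 peaks and 1 peak lay over 2-fold from the median.

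**Figure D5:**
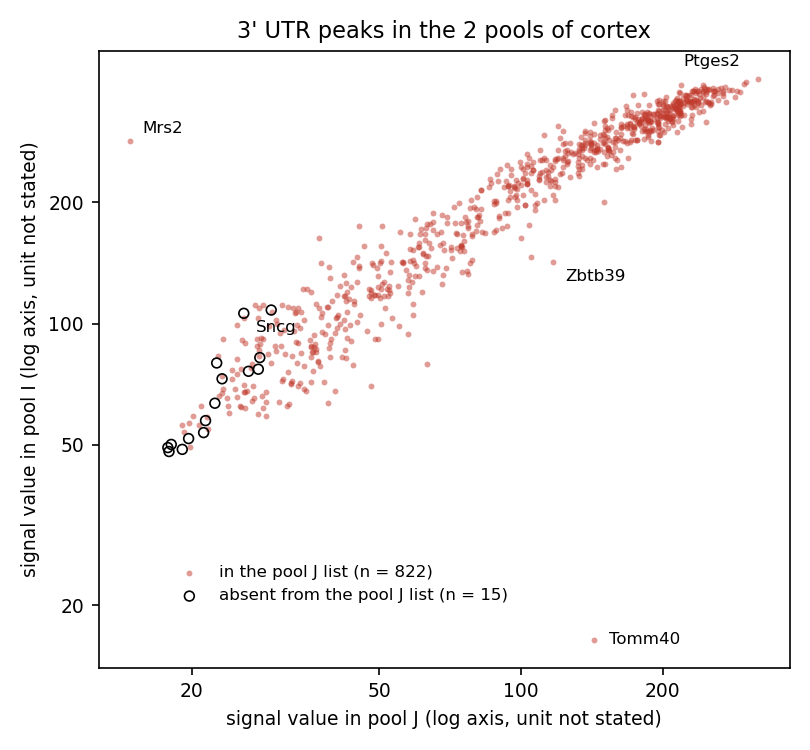
Signal value of the 837 3' UTR peaks in pool I (y axis) against pool J (x axis), both on log axes in a unit that was not stated; filled points overlap a pool J peak (n = 822) and open circles do not (n = 15). Most points follow 1 diagonal from weak to strong, the open circles are at its weak end, and Tomm40 and Mrs2 stand apart.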

How the data were processed

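CTCF ChIP-seq was done on 2 pools of left cerebral cortex with 2 libraries each, grouped by the pool named in the labels. On mm10, 8 peak lists were deposited by the authors, and 5 supplied values here, and 2 ranked lists of the single pools served only to tell which input was which pool. Per the labels and the deposited notes, lists came from pool I, pool J, both pools as replicates (the conservative list) and the pooled reads (the optimal list). The aligner and peak caller were not given in the sources used here. The deposited score of each peak is a scaled irreproducible discovery rate (IDR), at least 540 in the conservative list, which corresponds to an IDR of 0.05. The deposited ranked lists also give the IDR as −log10. The deposited signal value is the authors' own and its unit is unknown. In the ranked list of both pools, 84.5% of the intervals given first matched a ranked pool I interval exactly and 61.8% of those given second a pool J interval, with 0% crosswise. Read depth is unknown, and intervals cover the counting of peaks only.

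Summits were placed by the GENCODE M21 basic set (protein-coding genes, 21938; lncRNA genes, 10155) on GRCm38.p6, which has the chromosome lengths of mm10, in the order promoter, coding exon, 3' UTR, other exon, intron, downstream, intergenic. A matrix of 20 bases was learned from 915 matches in the strongest 1000 peaks of odd-numbered autosomes outside 3' UTRs, seeded by a degenerate core, and those peaks were left out of motif shares. A match is a score that 1% of flanking windows passed. Fisher's exact and binomial tests were two-sided, differences have Newcombe and shares Clopper-Pearson 95% intervals. Learning, scanning and testing were tested on simulated data. In density by distance, genes with the same 3' end counted once.

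The peaks, the 19 gene lists and 14 symbol families were chosen with earlier results of these data known. Named genes are the 10 strongest and 3 weakest peaks, genes with 3 peaks, the 5 best motif scores, the 3 strongest without a motif, on both strands, over 5000 bp from the stop codon, in repeats or absent from pool J, the 3 extreme pool ratios on each side, and up to 4 hosts per list, passing over clone symbols. Promoter pairs were named after their values were seen. Tools were SciPy 1.17.1, pandas 2.3.3, numpy 2.4.6 and, for figures, matplotlib 3.10.9, under Python 3.11.15. Alternatives were other lists, thresholds and windows.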

Additional observations from a re-analysis of the deposited data

How the results depend on the processing

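Of 43 alternatives to comparisons with a test, 34 kept direction and side of the threshold, and of 11 alternatives to counts and densities 7 stayed near the value reported. The number of 3' UTR peaks was 959 in the pool J list alone and 1382 in the pool I list alone, and their density was 30.4 per Mb in the optimal list, 31.1 in pool J and 44.8 in pool I, so counts and densities depend on the list. Against coding exons and introns, the greater strength held in every list. Against downstream peaks the share above the list's median differed by -0.803 points in the optimal list, -0.687 in pool I and -0.359 in pool J, none past the threshold. The motif share against introns differed by 2.83 points at the stricter score and 0.0407 at an IDR of at most 0.01, and by -2.89 in pool I and -0.718 in pool J, of which the pool I value passed the test. Against downstream peaks it differed by -0.979 points at the stricter score, and by -11.8 to -7.97 in the pool lists. The share of motifs on the coding strand was 46.8% at the stricter score, and 47.0% in pool I and 50.3% in pool J. The cause of these shifts was not tested. The lists of single pools leave out the other pool, which is 1 of 2 biological replicates. In them the difference to coding exons was 11.2 to 11.8 points for the motif and 6.4 to 11.0 for strength, to introns 10.8 to 13 for strength, and the excess of promoter peaks in hosts 8.43 to 12.1 points. Motif shares on even-numbered autosomes and X only, added after the data were seen, changed no call. No paired analysis was possible because the lists merge both libraries of a pool and the study has 1 condition.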
